A study of Homo sapiens with 12 samples.

Results

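The type I interferon response genes are a set of 44 human genes whose transcripts are induced by interferon alpha and beta. Each gene was taken from a probe set that names it and no other gene, and where several did, the brightest on average across the 12 arrays was used. By this rule 42 of the 44 were measured, among 17958 genes in all. GBP1 was left out because its probe set also names GBP3, and 1 further member is not analysed here.

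RNA was profiled on Affymetrix Human Gene ST arrays, in which a probe set is a group of probes for the same gene and brightness is given on the log2 scale, so that a difference of 1 is a doubling. The cells were 231BR, a line selected from human MDA-MB-231 breast cancer cells for growth in the brain, and they carried EGFP. The series title asks how estrogen acts on these cells by way of astrocytes that have the estrogen receptor. The groups were 231BR cells given 10 nM estradiol with mouse astrocytes, vehicle with mouse astrocytes, 10 nM estradiol alone, and vehicle alone, with 3 arrays each. All co-cultures lasted 24 h and were followed by sorting of the EGFP-positive cells, and all samples come from the same tumour line, so nothing here speaks for other lines. Sorting is described here only for the co-cultures, so in comparisons with astrocytes the astrocytes and that handling cannot be told apart. Whether replicates were grown as separate cultures is not in the labels, so p-values measure the spread between these samples, which may be technical. Precision is limited by how many arrays there are.

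Type I interferons bind the receptor made of IFNAR1 and IFNAR2, and the kinases JAK1 and TYK2 then activate STAT proteins that join IRF9 in the nucleus. That complex binds the interferon-stimulated response element (ISRE) in the promoters of its targets, while STAT dimers bind the gamma-activated sequence (GAS). The induced proteins sense foreign nucleic acid, block translation and viral entry, tag proteins with ISG15 and feed back on the pathway. In the brain, astrocytes and microglia can both release and respond to type I interferon.

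The ISRE is the sequence that many of these genes share. RefSeq promoter windows (GRCh38.p14, 250 bases before to 50 after a start) were held for 36 of the 44 members, and the ISRE core (GAAA, any 2 bases, GAAA) was searched on both strands, so that it also reads TTTC, any 2 bases, TTTC. It was found in 24 of those 36 members (66.7%), against 4.38% of the 27305 genes in the table. The stretches below run 5′ to 3′ on the strand of the gene, with core matches in capitals and flanking bases in lower case. The first 6 belong to the members with the highest mean signal among those with a match before the start. ISG15, PARP14 and IFI44 were added after their values were seen.
LGALS3BP, chr17:78979957-78979996, minus strand: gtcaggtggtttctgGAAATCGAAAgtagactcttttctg
IFI6, chr1:27672261-27672363, minus strand: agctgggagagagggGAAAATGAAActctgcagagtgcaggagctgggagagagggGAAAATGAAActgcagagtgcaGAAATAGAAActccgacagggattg
SAMD9, chr7:93118091-93118130, minus strand: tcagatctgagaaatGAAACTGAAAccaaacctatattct
IFIT3, chr10:89327826-89327899, plus strand: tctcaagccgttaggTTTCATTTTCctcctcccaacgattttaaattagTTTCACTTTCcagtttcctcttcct
OAS3, chr12:112938316-112938473, plus strand: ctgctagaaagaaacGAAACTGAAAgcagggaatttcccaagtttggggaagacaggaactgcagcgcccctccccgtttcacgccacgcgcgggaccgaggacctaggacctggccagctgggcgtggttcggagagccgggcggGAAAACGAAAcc
IFIT1, chr10:89392492-89392544, plus strand: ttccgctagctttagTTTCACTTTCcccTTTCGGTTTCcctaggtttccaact
ISG15, chr1:1013369-1013414, plus strand: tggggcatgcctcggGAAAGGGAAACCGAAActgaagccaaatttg
PARP14, chr3:122680795-122680834, plus strand: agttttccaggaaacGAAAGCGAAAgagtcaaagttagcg
IFI44, chr1:78649756-78649788, plus strand: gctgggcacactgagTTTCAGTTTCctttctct

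In ISG15 2 matches overlap, and in IFI6 there are 3 matches within 103 bases. The GAS core TTCNNNGAA was found in 12 of the 36 members (33.3%), against 9.38% of all genes, and the 2 motifs overlapped in windows of MX1, BST2, IFI27 and EPSTI1. The OAS1 window held 1 GAS core and no ISRE core. A match is a description of letters and does not show that a factor binds there.

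The arrays differed in their range of signal, which bears on every comparison with astrocytes. Across an array, the SD of log2 signal was 1.62 in replicate 2 of estradiol with astrocytes and 1.82 in replicate 2 of vehicle with astrocytes, and lay between 1.95 and 2.22 on the other 10 arrays. The mean of 8 markers of MDA-MB-231-type cells (among them VIM, CD44 and EGFR) was 7.86 to 9.27 per array in estradiol with astrocytes, 8.80 to 9.25 in vehicle with astrocytes, 9.29 to 9.50 in estradiol alone and 9.19 to 9.51 in vehicle alone. Replicate 2 of estradiol with astrocytes was the highest of the 12 arrays for 7 members (16.7%), against 37.2% of all genes, and the lowest for 13 members (31.0%), against 34.1% of all genes.

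**Figure D1:**
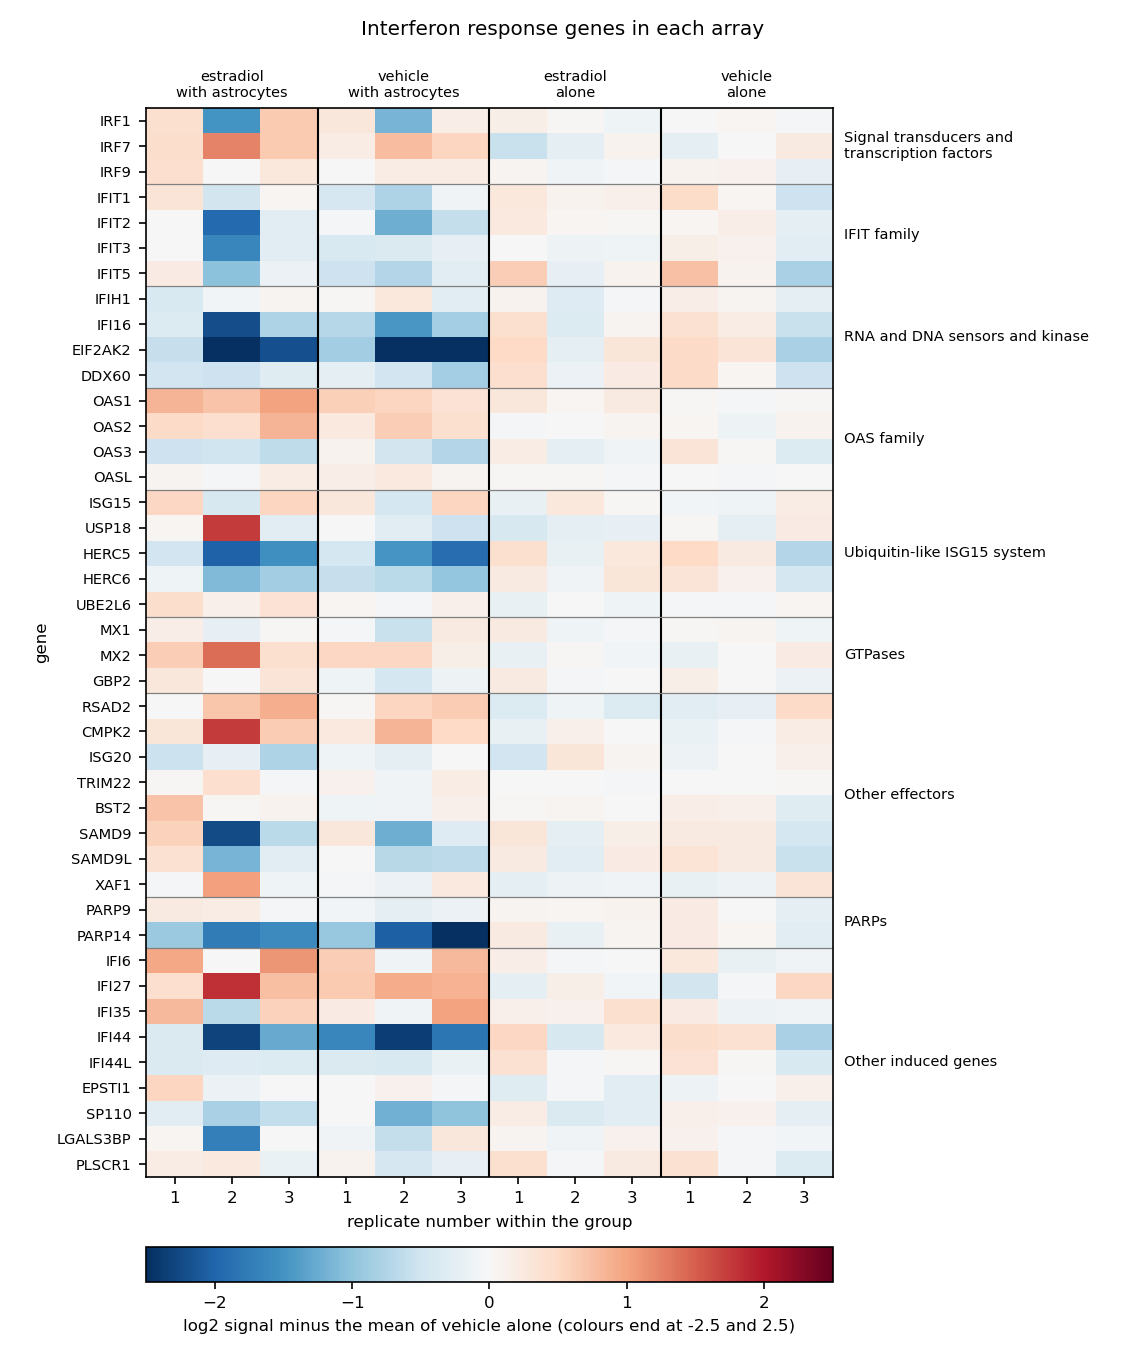
Log2 signal of each of the 42 measured genes on each of the 12 arrays, minus the mean of the 3 vehicle alone arrays, with genes as rows grouped by role and arrays as columns. Many of the deepest colours lie on replicate 2 of estradiol with astrocytes, and OAS1 is above the vehicle alone mean on all 6 astrocyte arrays.

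Without astrocytes or estradiol the members were measured at very different signals. In vehicle alone the 6 highest were LGALS3BP (8.61 ± 0.094 log2 units, SD, n = 3), IFI16 (8.02 ± 0.499), SAMD9 (6.82 ± 0.383), EIF2AK2 (6.77 ± 0.705), IFI35 (6.65 ± 0.184) and IRF1 (6.61 ± 0.042). The 6 lowest were TRIM22 (2.64 ± 0.020), RSAD2 (3.15 ± 0.409), EPSTI1 (3.22 ± 0.122), IFIH1 (3.45 ± 0.199), PLSCR1 (3.46 ± 0.357) and MX2 (3.56 ± 0.199). Signals of different probe sets depend on their probes, so this list is not an order of transcript levels, and no detection call was used.

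With astrocytes under estradiol, 3 members rose and 1 fell relative to estradiol alone. OAS1, IRF7 and MX2 rose between 1.59-fold and 2.02-fold, and PARP14 fell by 1.46 on the log2 scale. These 4 are 9.52% of the measured members, against 13.2% of all genes called by limma at an adjusted p under 0.05. The share called higher was 7.14% of members and 5.03% of all genes, and the share called lower was 2.38% of members and 8.15% of all genes. The median change was -0.038 log2 over the members, 20 of them positive and 22 negative, and 0.066 over all genes. With the SD of log2 signal on each array as a covariate it had the opposite sign, at 0.25 over the members and 0.043 over all genes. With only the 6 arrays of these groups in the fit, limma called no member and none of the 17958 genes.

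With astrocytes under vehicle no member passed the threshold in limma relative to vehicle alone, where 0.0557% of all genes did. An unadjusted p under 0.05 was reached under vehicle by 10 members (23.8%), against 28.2% of all genes, and under estradiol by 14 members (33.3%), against 43.9% of all genes. The median change under vehicle was -0.15 log2 over the members, 17 positive and 25 negative, and 0.059 over all genes. With the SD of log2 signal on each array as a covariate, this median had the opposite sign, at 0.064 over the members and 0.034 over all genes. The 2 astrocyte comparisons share no arrays, but they share 1 estimate of the spread.

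**Figure D2:**
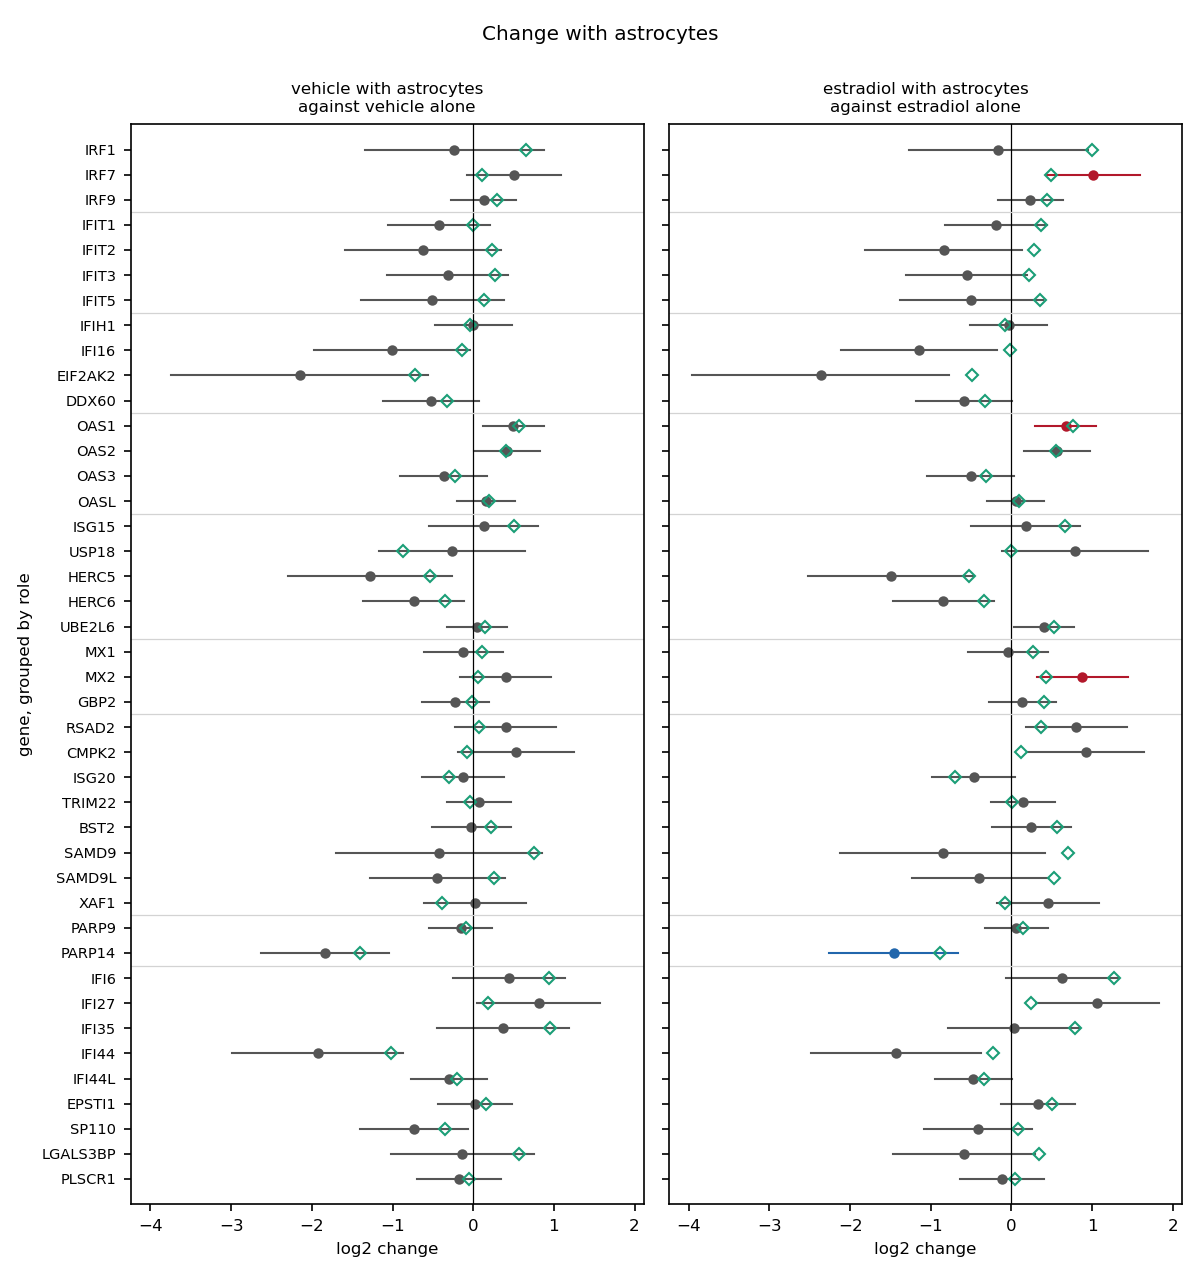
Log2 change with astrocytes for each of the 42 genes, under vehicle on the left and under estradiol on the right. Circles are limma estimates with 95% intervals, coloured where the gene passed the threshold, and open diamonds are estimates with array SD as a covariate. OAS1 is to the right of zero and PARP14 to the left in both panels by both estimates.

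OAS1 makes 2′-5′-linked oligoadenylates on double-stranded RNA, which activate RNase L. Its signal was 6.27, 6.13 and 6.42 in estradiol with astrocytes, 6.02, 5.96 and 5.77 in vehicle with astrocytes, 5.70, 5.47 and 5.64 in estradiol alone, and 5.44, 5.36 and 5.45 in vehicle alone. Neither astrocyte group overlapped its group without astrocytes, and in both cultures the estradiol arrays lay above the vehicle arrays. OAS1 rose with astrocytes under estradiol by 0.67 log2 (SE 0.17, limma adjusted p = 0.0387). Under vehicle its change of 0.50 (SE 0.17) had an adjusted p of 0.116.

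The OAS family had estimates of both signs. OAS2, a relative with the same activity, measured 4.86, 4.81 and 5.23 in estradiol with astrocytes and 4.36, 4.39 and 4.45 in estradiol alone, without overlap (0.57 log2, adjusted p = 0.0583). OAS3 had the opposite sign, with 5.88, 5.89 and 5.76 in estradiol with astrocytes and 6.57, 6.17 and 6.30 in estradiol alone (-0.50, adjusted p = 0.132). OASL, which has lost that activity, had 0.053 under estradiol and 0.16 under vehicle. OAS1, OAS3 and OAS2 are neighbours on chromosome 12, and OAS3 lies between the other members of the cluster. Under vehicle their values were 0.50 for OAS1, -0.36 for OAS3 and 0.42 for OAS2, and none passed the threshold.

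IRF7 is the transcription factor that amplifies interferon alpha production. It measured 5.73, 6.53 and 5.95 in estradiol with astrocytes, against 4.74, 5.05 and 5.39 in estradiol alone. The groups did not overlap, and IRF7 rose by 1.01 log2 (SE 0.27, adjusted p = 0.0404). Under vehicle it measured 5.49, 6.07 and 5.84 with astrocytes and 5.06, 5.30 and 5.53 alone, with overlap (0.50, adjusted p = 0.222).

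IRF9, the DNA-binding partner of the STAT proteins, differed by 0.23 under estradiol (adjusted p = 0.316) and by 0.13 under vehicle (adjusted p = 0.619). IRF1, a factor induced by interferons and inflammatory cytokines, measured 7.01, 5.12 and 7.27 in estradiol with astrocytes and 6.76, 6.64 and 6.50 in estradiol alone. Its vehicle arrays read 6.89, 5.44 and 6.78 with astrocytes and 6.61, 6.65 and 6.57 alone. In both co-cultures replicate 2 lay more than 1 log2 unit under the other arrays of its group, and the groups overlapped.

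MX2, a dynamin-like GTPase that restricts HIV-1, measured 4.19, 4.95 and 3.95 in estradiol with astrocytes, against 3.37, 3.60 and 3.49 in estradiol alone. All 3 co-culture arrays were above all arrays of estradiol alone, and MX2 rose by 0.88 log2 (SE 0.26, adjusted p = 0.0468). Under vehicle it measured 4.09, 4.09 and 3.72 with astrocytes and 3.37, 3.54 and 3.77 alone (0.40, adjusted p = 0.290). MX1, its neighbour on chromosome 21 and an inhibitor of influenza virus, had values of -0.041 under estradiol (adjusted p = 0.884) and -0.12 under vehicle (adjusted p = 0.706). GBP2, a guanylate-binding protein, had 0.14 under estradiol and -0.22 under vehicle.

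PARP14, an ADP-ribosyltransferase that acts in interferon signalling, was the 1 member that fell. It measured 4.71, 3.88 and 4.04 in estradiol with astrocytes, against 5.86, 5.46 and 5.70 in estradiol alone. No array of the co-culture reached the lowest array of estradiol alone, and the difference was -1.46 log2 (SE 0.36, adjusted p = 0.0371), which is 2.75-fold lower. PARP14 under vehicle measured 4.69, 3.59 and 3.12 with astrocytes, against 5.85, 5.69 and 5.36 alone (-1.83, SE 0.36, adjusted p = 0.0763). PARP9, its partner gene, had 0.059 under estradiol and -0.15 under vehicle.

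**Figure D3:**
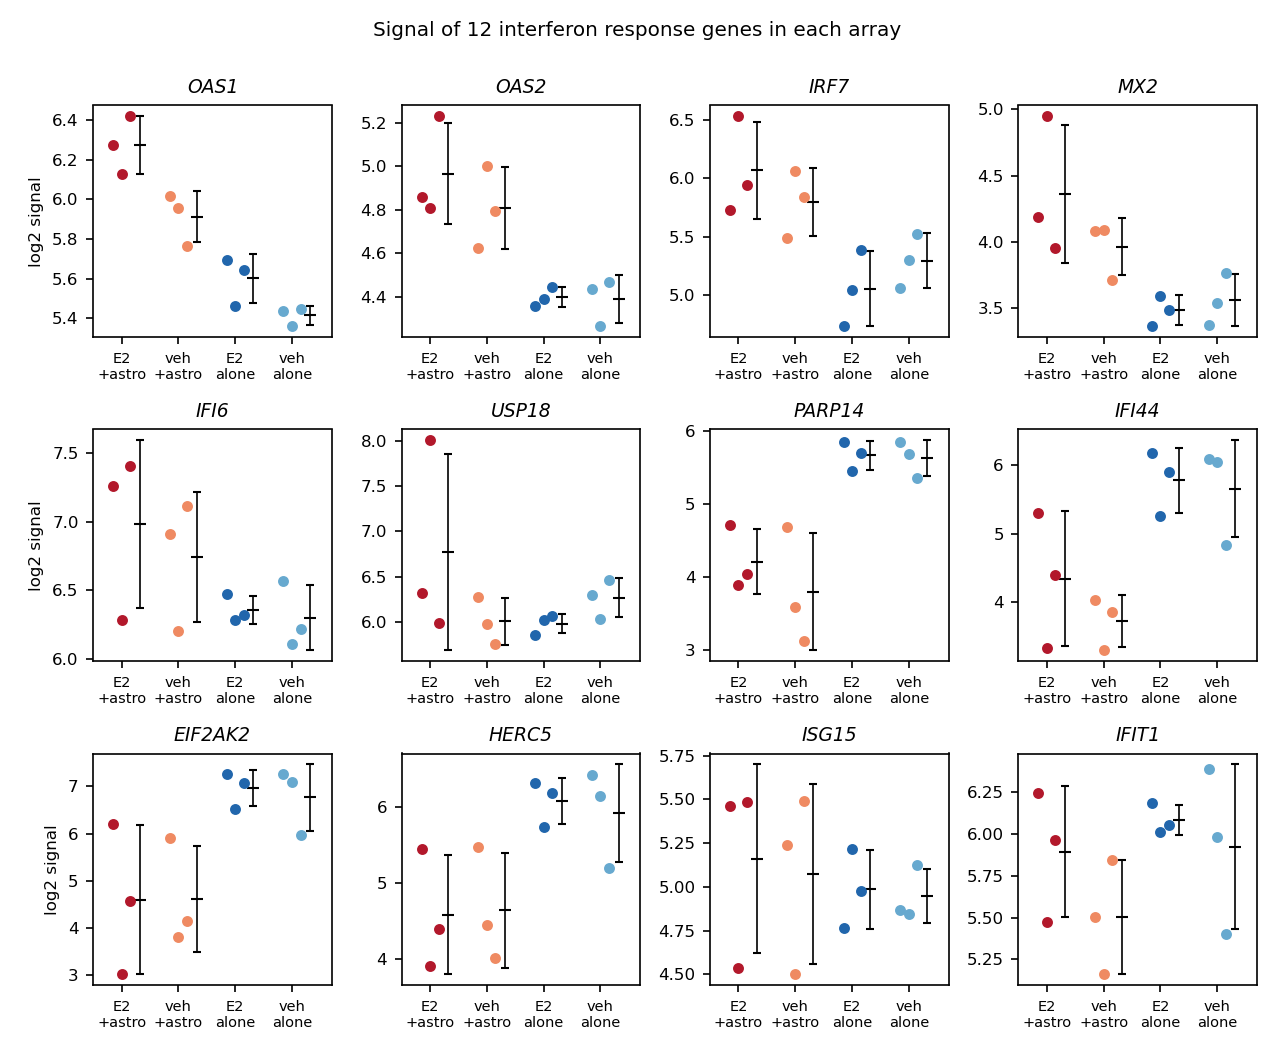
Log2 signal per array for selected genes by group, from estradiol (E2) with astrocytes (astro) on the left to vehicle (veh) alone on the right, with points for arrays and bars for mean ± SD (n = 3). OAS1, IRF7 and MX2 lie higher and PARP14 lower in estradiol with astrocytes than in estradiol alone, without overlap.

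Under estradiol, a sensor and an ISG15 ligase had the largest estimates in size that missed the threshold. EIF2AK2 encodes PKR, the kinase that stops translation when it binds double-stranded RNA. It measured 6.20, 3.03 and 4.57 in estradiol with astrocytes and 7.27, 6.53 and 7.08 in estradiol alone (-2.36, SE 0.73, adjusted p = 0.0516). In vehicle with astrocytes it measured 5.90, 3.81 and 4.14, against 7.25, 7.09 and 5.96 in vehicle alone (-2.15, SE 0.73, adjusted p = 0.113). Both co-cultures lay below their groups without astrocytes, but EIF2AK2 had the widest spread of all members, with an SD of 1.58 in estradiol with astrocytes and 1.13 in vehicle with astrocytes.

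IFI16, a sensor of nuclear DNA, measured 7.67, 5.80 and 7.25 in estradiol with astrocytes and 8.42, 7.68 and 8.08 in estradiol alone (-1.15, adjusted p = 0.0784). DDX60, a helicase reported to assist RNA sensing, had -0.59 under estradiol and -0.52 under vehicle. IFIH1, the cytosolic RNA sensor MDA5, had -0.035 under estradiol and 0.0026 under vehicle. None of the 4 genes of this group passed the threshold in either comparison.

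ISG15, the ubiquitin-like protein that gives the system its name, measured 5.46, 4.54 and 5.48 in estradiol with astrocytes, 5.24, 4.50 and 5.49 in vehicle with astrocytes, 4.77, 5.21 and 4.98 in estradiol alone, and 4.87, 4.85 and 5.13 in vehicle alone. Replicate 2 of each co-culture was the lowest and the other co-culture arrays were the highest, so the groups overlapped (0.18 under estradiol and 0.13 under vehicle). HERC5, the main ISG15 ligase, measured 5.45, 3.91 and 4.40 in estradiol with astrocytes and 6.33, 5.74 and 6.19 in estradiol alone (-1.50, adjusted p = 0.0525). HERC6, its neighbour on chromosome 4, had -0.85 under estradiol, while UBE2L6, the conjugating enzyme for ISG15, had 0.40. USP18, which removes ISG15 and restrains the receptor, was at 8.01 in replicate 2 of estradiol with astrocytes and between 5.76 and 6.47 on the other 11 arrays.

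The IFIT proteins bind foreign RNA 5′ ends and block its translation. All 4 IFIT genes, which lie together on chromosome 10, had negative estimates in both astrocyte comparisons, with medians of -0.53 under estradiol and -0.47 under vehicle. None passed the threshold. With the array SD as a covariate the family median was positive in both, at 0.31 under estradiol and 0.18 under vehicle. IFIT1 measured 6.25, 5.47 and 5.96 in estradiol with astrocytes and 6.19, 6.01 and 6.06 in estradiol alone (-0.19, adjusted p = 0.592). Its vehicle arrays read 5.50, 5.16 and 5.84 with astrocytes and 6.39, 5.98 and 5.40 alone (-0.42, adjusted p = 0.317).

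Among the other effectors, CMPK2 and RSAD2, adjacent genes on chromosome 2, had similar estimates. RSAD2 encodes viperin, which makes a chain-terminating nucleotide, and CMPK2 encodes a mitochondrial nucleotide kinase. CMPK2 measured 4.61, 6.08 and 4.96 in estradiol with astrocytes and 4.13, 4.45 and 4.31 in estradiol alone (0.92, adjusted p = 0.0679). RSAD2 measured 3.15, 3.84 and 4.05 in estradiol with astrocytes and 2.80, 3.04 and 2.80 in estradiol alone (0.80, adjusted p = 0.0681). Neither gene overlapped between these groups, and neither passed the threshold. Under vehicle CMPK2 had 0.53 (adjusted p = 0.279) without overlap, and RSAD2 had 0.40 (adjusted p = 0.335) with overlap. The mean signals of both, 4.67 for CMPK2 and 3.31 for RSAD2, were under the median of all genes. Of the 8979 genes at or below that median, 7156 were positive under estradiol.

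TRIM22, a tripartite-motif antiviral protein, was the 1 member with 2 probe sets of its own. The brighter one, used here, measured 2.68, 3.05 and 2.59 in estradiol with astrocytes and 2.62, 2.65 and 2.59 in estradiol alone, with overlap. The dimmer one measured 2.51, 3.56 and 3.27 in estradiol with astrocytes and 2.11, 2.12 and 2.30 in estradiol alone, without overlap. The 2 probe sets thus differ on TRIM22 in whether these groups overlap, and the brighter one had a positive estimate too (0.15). Both lie near the bottom of the signal range. Genes at or below the median signal had a median change of 0.46 under estradiol. SAMD9 and SAMD9L, neighbours on chromosome 7 that inhibit translation, had -0.85 and -0.40 under estradiol.

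The genes named for their induction by interferon ran in both directions. IFI27, a mitochondrial protein that can promote cell death, measured 4.82, 6.24 and 5.17 in estradiol with astrocytes and 4.16, 4.55 and 4.33 in estradiol alone (1.06, adjusted p = 0.0574). IFI44 measured 5.30, 3.34 and 4.40 in estradiol with astrocytes and 6.18, 5.26 and 5.90 in estradiol alone (-1.43, adjusted p = 0.0609). Every IFI27 array with astrocytes was above those of estradiol alone, whereas for IFI44 replicate 1 of the co-culture overlapped estradiol alone. In vehicle with astrocytes IFI44 measured 4.03, 3.30 and 3.86, against 6.09, 6.04 and 4.84 in vehicle alone, without overlap (-1.93, SE 0.48, adjusted p = 0.0871). Its neighbour on chromosome 1, IFI44L, had -0.47 under estradiol and -0.30 under vehicle.

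IFI6, a regulator of mitochondrial stability, measured 7.26, 6.28 and 7.41 in estradiol with astrocytes and 6.47, 6.28 and 6.32 in estradiol alone (0.63, adjusted p = 0.141). Replicate 2 of the co-culture read like the arrays of estradiol alone and the other replicates lay above them. LGALS3BP, a secreted galectin-binding glycoprotein, measured 8.65, 6.90 and 8.61 in estradiol with astrocytes and 8.68, 8.52 and 8.71 in estradiol alone (-0.59). Replicate 2 again stood apart, this time below.

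By overlap of the groups, 8 members were higher and 9 were lower on every array of estradiol with astrocytes than of estradiol alone, against 27.0% and 23.9% of all genes. The higher members were CMPK2, IFI27, IRF7, MX2, OAS1, OAS2, RSAD2 and UBE2L6, and the lower ones were DDX60, EIF2AK2, HERC5, HERC6, IFI16, IFI44L, IFIT2, OAS3 and PARP14. Under vehicle 5 members were higher and 5 lower without overlap, against 23.4% and 18.4% of all genes. The higher ones were CMPK2, IFI27, OAS1, OAS2 and OASL, and the lower ones EIF2AK2, HERC6, IFI16, IFI44 and PARP14. These shares of members are 19.0% and 21.4% under estradiol and 11.9% in each direction under vehicle, all below those of all genes.

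The calls under estradiol moved with single arrays. Without replicate 2 of estradiol with astrocytes only OAS1 was called, at 0.75 log2, while IRF7 had 0.78, MX2 0.58 and PARP14 -1.30. None of the 4 was called without replicate 1, 2 or 3 of estradiol alone, replicate 1 or 2 of vehicle alone, or replicate 3 of estradiol with astrocytes. IRF7 and MX2 were also not called without replicate 3 of vehicle with astrocytes, nor MX2 without replicate 2 of that group or replicate 3 of vehicle alone. Over the 12 fits that leave out 1 array the estimates ranged from 0.60 to 0.75 for OAS1, 0.78 to 1.18 for IRF7, 0.58 to 1.08 for MX2 and -1.71 to -1.30 for PARP14. Their highest adjusted p-values were 0.155 for OAS1 and PARP14, 0.160 for IRF7 and 0.167 for MX2.

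With the array SD as a covariate, 2 members were called under estradiol, against 2.61% of all genes. OAS1 rose by 0.77 log2 (adjusted p = 0.0396) and IFI6 by 1.27, whereas IRF7 had 0.50 (adjusted p = 0.183), MX2 0.42 (0.269) and PARP14 -0.89 (0.156). Under vehicle the same covariate gave 6 member calls, against 6.49% of all genes. IFI35, IFI6, OAS1 and SAMD9 rose by 0.95, 0.93, 0.57 and 0.76 log2, and PARP14 fell by 1.40 and IFI44 by 1.02. The sign of 13 of the 42 members changed with this covariate in each astrocyte comparison, and what the array SD itself reflects was not tested. Under every setting tried, 7 members kept a positive sign in both astrocyte comparisons (IRF7, OAS1, OAS2, MX2, RSAD2, IFI6 and IFI27) and 10 a negative one (IFI16, EIF2AK2, DDX60, OAS3, HERC5, HERC6, ISG20, PARP14, IFI44 and IFI44L). Several settings, among them the replicate block and the eBayes options, leave the estimates as they are and could not change a sign. How many of all genes kept their sign was not counted.

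Change with astrocytes also went with signal. Over all genes above the median signal of 5.11 the median change was -0.58 log2 under estradiol and -0.37 under vehicle, and over those at or below it 0.46 and 0.33. Of the 22 members above that signal, 9 were positive and 13 negative under estradiol (median -0.30), and 7 and 15 under vehicle (median -0.29). Of the 20 at or below it, 11 were positive and 9 negative under estradiol (median 0.098), and 10 and 10 under vehicle (median -0.059). Across the members signal and change had r = -0.22 under estradiol and -0.12 under vehicle (n = 42 genes of the same arrays), against -0.53 and -0.42 across all genes. This signal is a mean over all arrays, those with astrocytes included, so a gene that is lower with astrocytes also has a lower mean. PARP14 had a mean of 4.83 over all arrays, but averaged 5.67 ± 0.20 in estradiol alone and 5.63 ± 0.25 in vehicle alone (SD, n = 3 each). IFI44 had 4.88 over all arrays, 5.78 ± 0.47 in estradiol alone and 5.66 ± 0.71 in vehicle alone.

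**Figure D4:**
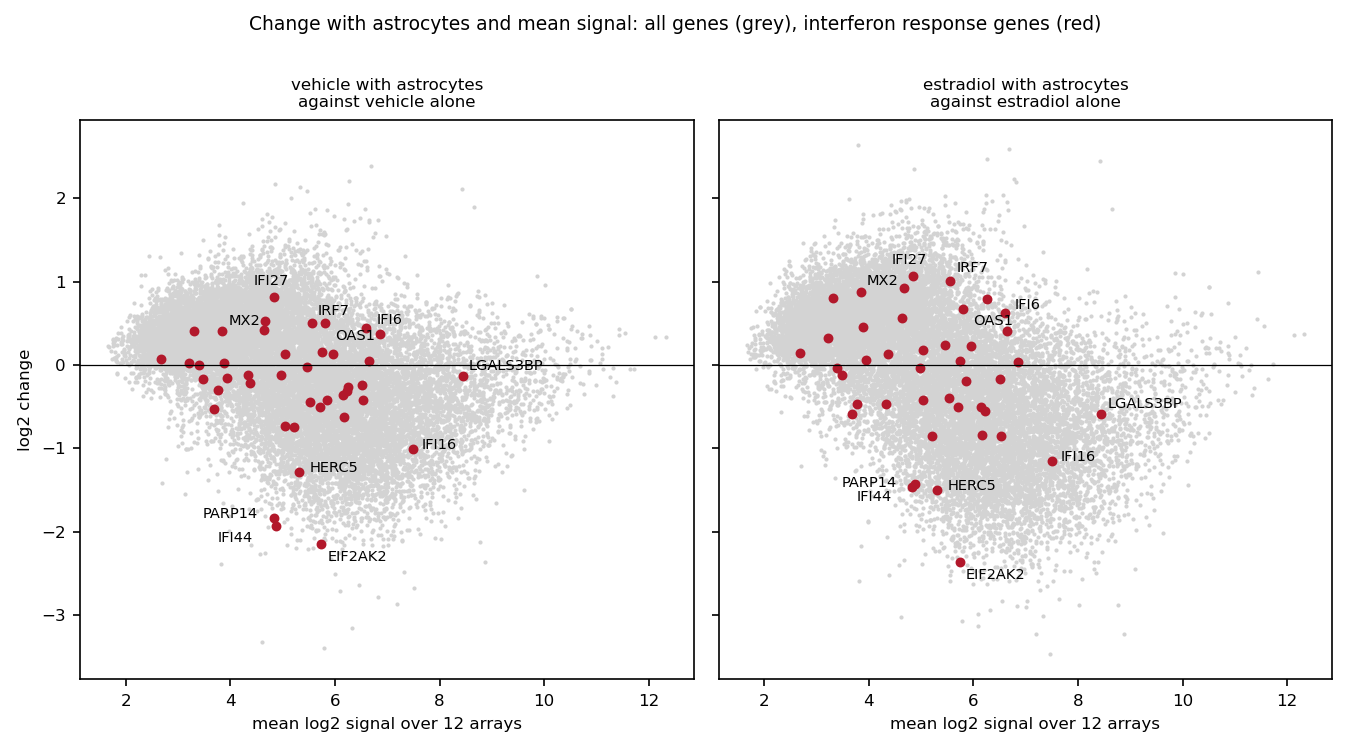
Log2 change with astrocytes against mean log2 signal over the 12 arrays, under vehicle and under estradiol, for all 17958 genes (grey) and the 42 interferon response genes (red). Grey points tilt downward from dim to bright genes, while IFI44, PARP14 and EIF2AK2 lie low and IRF7 and OAS1 above zero.

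Members with an ISRE core in the window were set beside those without. Of the 23 measured members with a match, 7 were positive and 16 negative under estradiol (median -0.47), and 6 and 17 under vehicle (median -0.17). Of the 11 without, 6 were positive and 5 negative in each comparison, with medians of 0.032 under estradiol and 0.025 under vehicle. A further 8 measured members, IRF7 and MX2 among them, had no window in the table. These are estimates without the array SD as a covariate, and the split was not made with it. With that covariate the sign of 13 of the 42 members changed in each astrocyte comparison. PARP14 and IFI44, printed above, each carry 1 match and had lower signal with astrocytes, and IFI6, with 3 matches, had higher signal on average.

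Estradiol moved no member past the threshold in either culture. With astrocytes 0% of all genes and no member was called by limma, and 1 member, GBP2, had an unadjusted p under 0.05 (2.38%), against 0.791% of all genes. GBP2 measured 4.66, 4.35 and 4.68 in estradiol with astrocytes, against 4.25, 3.94 and 4.25 in vehicle with astrocytes (0.42, SE 0.19, adjusted p = 1.00). Its groups did not overlap, nor did those of OAS1 (0.36, 95% interval -0.016 to 0.74) and PARP9 (0.28, -0.11 to 0.67). These 3 members were higher, against 1.36% of all genes, and no member was lower without overlap, against 0.819%. USP18 had the largest estimate (0.76, -0.14 to 1.67), which replicate 2 carries, and ISG20, an exonuclease, had -0.38 (-0.89 to 0.13).

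For the other genes that are read in every comparison, the estimates with astrocytes were 0.39 for IFIT1, 0.27 for IRF7, 0.12 for MX1, 0.094 for IRF1, 0.090 for IRF9 and 0.086 for ISG15. All their groups overlapped. The member median was 0.11 log2, with 29 positive and 13 negative, and 0.0034 over all genes.

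In 231BR cells without astrocytes, estradiol against vehicle again gave 0% of all genes and no member by limma, and no member had an unadjusted p under 0.05. OAS1 was the 1 member whose groups did not overlap on the higher side (0.19, 95% interval -0.19 to 0.56), against 1.94% of all genes, and no member did so on the lower side, against 1.27%. The next smallest p-values belonged to EPSTI1 (-0.20, interval -0.66 to 0.26), RSAD2 (-0.27, -0.90 to 0.36) and IRF7 (-0.24, -0.82 to 0.35). Member estimates lay between -0.29 and 0.21 log2, with a median of 0.035, against 0.014 over all genes. IFIT1 had 0.16, ISG15 0.039, MX1 0.037, IRF1 0.023 and IRF9 -0.014, all with overlap.

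The interaction asks whether the estradiol effect differed between cultures, and limma called 0% of all genes and no member, with no member at an unadjusted p under 0.05. The smallest p-values were those of USP18 (1.05, 95% interval -0.24 to 2.34), UBE2L6 (0.35, -0.17 to 0.88), IRF7 (0.51, -0.32 to 1.33) and GBP2 (0.36, -0.23 to 0.95). OAS1 had 0.18 (-0.36 to 0.71), IFIT1 0.23, IRF9 0.10, MX1 0.079, IRF1 0.071 and ISG15 0.047. These intervals are wide, and they do not show that the effects were alike.

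**Figure D5:**
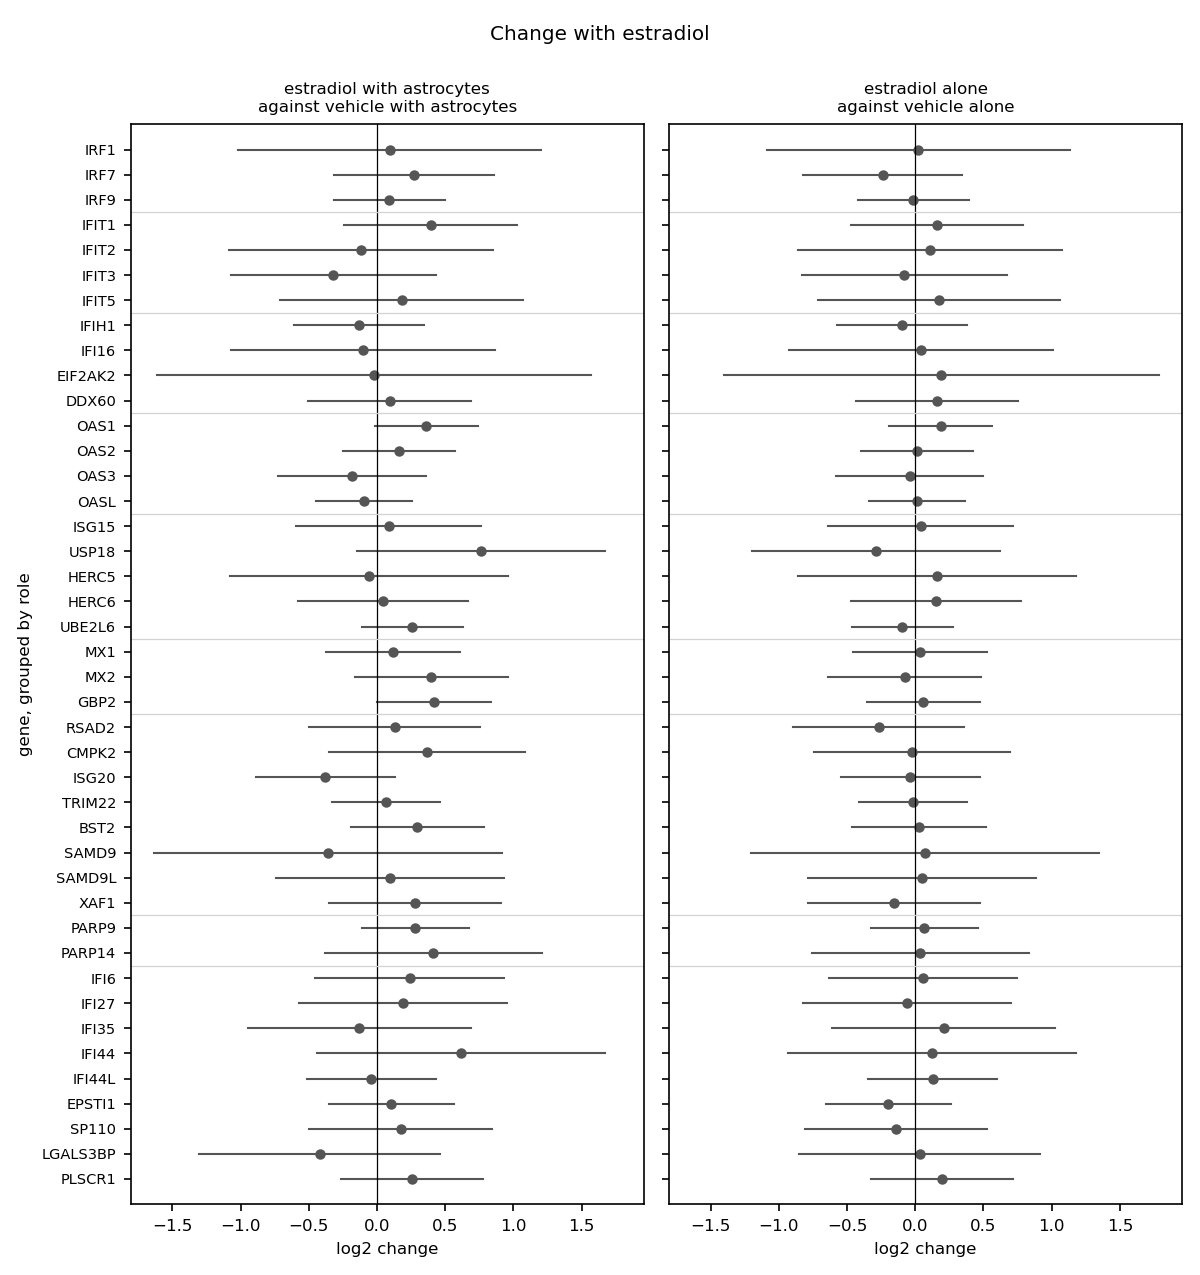
Log2 change with estradiol for each of the 42 genes, with astrocytes on the left and alone on the right, as limma estimates with 95% intervals. Intervals cross zero for all genes alone, and with astrocytes for all but GBP2, whose lower bound is 0.0012.

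Upstream of the members, 21 interferon ligands were listed and 14 measured. Under estradiol IFNA10 rose with astrocytes by 1.25 log2 (adjusted p = 0.0417) and IFNA2 by 0.92 (0.0454), and no ligand was called under vehicle. These are 2 of 14 measured ligands, against 13.2% of all genes called under estradiol. IFNA2 measured 2.57, 3.75 and 3.21 in estradiol with astrocytes and 2.37, 2.12 and 2.29 in estradiol alone, near the bottom of the signal range. Neither was called without replicate 2 of estradiol with astrocytes, nor with the array SD as a covariate (0.65 for IFNA10 and 0.43 for IFNA2). The ligand median was 0.43 under estradiol and 0.40 under vehicle, where all 14 were positive, and -0.039 and 0.061 with the covariate. Most ligands were dim, and all genes at or below the median signal had medians of 0.46 under estradiol and 0.33 under vehicle.

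Of 11 receptor and JAK-STAT genes 10 were measured, and IFNAR1, the receptor chain that binds TYK2, fell by 1.83 log2 under estradiol (adjusted p = 0.0473). It measured 5.44, 3.62 and 4.08 in estradiol with astrocytes, against 6.57, 5.69 and 6.39 in estradiol alone. In vehicle with astrocytes it measured 5.23, 4.02 and 4.20, against 6.76, 6.51 and 5.12 in vehicle alone, and did not pass (-1.64, adjusted p = 0.107). With the covariate the fall under estradiol was not called (-0.62, adjusted p = 0.363). JAK1 (-1.94, adjusted p = 0.0642) and JAK2 (-0.67, 0.0711) did not pass. IFNAR1 was thus 1 of 10 measured genes called under estradiol, against 13.2% of all genes.

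Of 12 negative regulators, SOCS1, which inhibits JAK kinases, was the 1 called, and it rose under estradiol by 1.48 log2 (adjusted p = 0.0436). It measured 6.18, 7.85 and 6.68 in estradiol with astrocytes and 5.26, 5.72 and 5.30 in estradiol alone, without overlap. With the covariate SOCS1 had 0.47 (adjusted p = 0.237). SOCS1 was thus 1 of 12 genes called under estradiol, against 13.2% of all genes.

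Among 20 nucleic acid sensing genes 2 were called, both under estradiol, where 13.2% of all genes were called. CGAS, the DNA sensor that makes cGAMP, fell by 1.61 log2 (adjusted p = 0.0352), and TRAF3, an adaptor for interferon induction, fell by 1.51 (adjusted p = 0.0404). CGAS measured 6.19, 4.94 and 5.11 in estradiol with astrocytes, against 7.14, 6.91 and 7.01 in estradiol alone. Neither was called with the covariate (-0.90 for CGAS and -0.55 for TRAF3) or without replicate 2 of estradiol with astrocytes.

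Of 34 further interferon-induced genes 29 were measured, 1 of which rose and 4 of which fell under estradiol. In that comparison 5.03% of all genes were called higher and 8.15% lower. PLAAT4, a phospholipase induced by retinoids and interferon, rose by 1.11 log2 (adjusted p = 0.0332), and it averaged 5.19 ± 0.24 in estradiol with astrocytes and 4.08 ± 0.102 in estradiol alone (SD, n = 3 each), without overlap. It was called with the covariate too (1.19, adjusted p = 0.0333). RNF213, a large ubiquitin ligase, fell by 1.52, SLFN5 fell by 1.55, DDX60L fell by 1.64 and SP100, a nuclear body protein, fell by 1.22, and none of these 4 was called with the covariate. Each of the 11 genes called in these lists lost its call in at least 6 of the 12 fits that leave out 1 array. Of 12 genes known best from interferon gamma none passed, against 13.2% of all genes under estradiol. Their smallest p-values were those of CXCL9 (0.81) and ICAM1 (-0.82).

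Markers of other cells were read beside these results. Astrocytes here were mouse cells and the arrays are human, so how far these lists read mouse RNA is not known. They do not give the content of mouse cells. The mean of 8 microglia and macrophage markers ranged from 3.66 to 4.98 per array in estradiol with astrocytes, 3.80 to 4.18 in vehicle with astrocytes, 3.37 to 3.51 in estradiol alone and 3.27 to 3.73 in vehicle alone. All 8 had positive estimates in both astrocyte comparisons, and 1 of them, SPI1, a myeloid transcription factor, rose under estradiol (1.28, adjusted p = 0.0438). Most of these 8 were dim. Of the 8979 genes at or below the median signal, 7156 were positive under estradiol and 6893 under vehicle. With the covariate the list median was 0.12 under estradiol and 0.059 under vehicle, against 0.73 and 0.51 without it. SPI1 then had 0.43 (adjusted p = 0.247), and it lost its call in 9 of the 12 fits that leave out 1 array. Of 9 astrocyte markers 5 were positive and 4 negative in each comparison, and SLC1A3, a glutamate transporter, fell by 0.97 under estradiol (adjusted p = 0.0494). The mean of the astrocyte list ranged from 4.94 to 5.22 in estradiol with astrocytes, 4.90 to 5.04 in vehicle with astrocytes, 4.87 to 5.02 in estradiol alone and 4.90 to 5.03 in vehicle alone. Among 8 tumour cell markers 1, EGFR, fell by 1.81 under estradiol (adjusted p = 0.0368). Of these 8, 6 were negative and 2, KRT18 and TGFBI, were positive in each astrocyte comparison. Most of these 8 were bright. Among the 8979 genes above the median signal, 6732 were negative under estradiol and 6329 under vehicle. With the covariate the tumour list median was 0.013 under estradiol and 0.11 under vehicle, against -0.71 and -0.39 without it. Each of these marker lists thus held 1 called gene under estradiol, where limma called 13.2% of all genes. Neither SLC1A3 (-0.48, adjusted p = 0.305) nor EGFR (-0.77, adjusted p = 0.122) was called with the covariate, and both lost their calls without replicate 2 of estradiol with astrocytes. The part of the array SD and of these markers in the members' values was not tested. In a bulk sample, fewer cells of a type and less RNA per cell cannot be told apart.

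The spread within groups was wider with astrocytes. The SD was over 0.5 log2 for 20 of the 42 members in estradiol with astrocytes, 9 in vehicle with astrocytes, 0 in estradiol alone and 5 in vehicle alone, against 54.4%, 23.3%, 0.746% and 7.89% of all genes. The median SD of the members was 0.455, 0.280, 0.164 and 0.224 log2 in those groups, against 0.543, 0.326, 0.141 and 0.214 over all genes. OAS1 had an SD under 0.2 in all 4 groups, in contrast to EIF2AK2 and IRF1.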

How the data were processed

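The authors deposited 1 table of log2 signals for the 12 arrays, and RMA and Partek are the tools in the submitters' processing notes, which give no version, role or order. The genome build and annotation behind the table are not given in the sources used here. Of 33297 probe sets, 19181 had 1 gene symbol in the platform table, 2055 had several and 12061 were unnamed, which left 17958 genes. Dim genes were kept. limma 3.58.1 in R 4.3.3 fitted 1 mean per group over all 12 arrays, followed by contrasts and eBayes. p-values were two-sided, with Benjamini-Hochberg adjustment across all genes in each of 5 contrasts, with a threshold of 0.05. With 3 arrays a group, the smallest two-sided p of an exact permutation test is 0.1, so none is given. The fit was tested on simulated data with independent noise of the same spread on every array. Those data do not copy the narrower signal range of some arrays here, so the test does not cover it.

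Values are given for every member past the threshold or else the 4 with the smallest p, the 6 highest and 6 lowest in vehicle alone, members with several probe sets and a few fixed genes (ISG15, IFIT1, MX1, OAS1, IRF9, IRF1 and IRF7). Other members were named after their values were seen. The members, lists and settings were chosen with earlier results of these data known. Promoter sequences are from RefSeq (GRCh38.p14).

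The alternatives were a replicate block, quantile normalization, median centring, the array SD as a covariate, bright genes only, the mean of probe sets, eBayes trend and robust options, arrayWeights, the compared groups only, a threshold of 0.10, replicate 2 of both astrocyte groups left out, and each array left out. Deviations from the group mean of arrays with the same number, in the 2 astrocyte groups, had r = 0.789, 0.756 and 0.214, so these were also compared as 3 pairs, an alternative added after seeing the data. The pairing comes from the values, and the meaning of a number is not in the labels.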

Additional observations from a re-analysis of the deposited data

How the results depend on the processing

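No setting changed the count of 0 members in estradiol alone against vehicle alone. With astrocytes, estradiol against vehicle gave 5 members with arrayWeights and 0 otherwise, the replicate block and the 3 pairs included, and the interaction gave 1 with arrayWeights and 0 otherwise. The estimation of arrayWeights stopped before it converged. In vehicle with astrocytes against vehicle alone (0 members), the count was 2 at a threshold of 0.10 (4.76%, against 7.29% of all genes), 4 with the replicate block, 6 with the array SD, 22 with arrayWeights, 3 with the compared groups only and 3 without replicate 2 of both astrocyte groups. Leaving out 1 array gave 0 to 8, with 8 without replicate 2 and 3 without replicate 1 of estradiol with astrocytes, and 5 without replicate 1 of vehicle with astrocytes. In estradiol with astrocytes against estradiol alone (4 members), it was 14 at 0.10 (33.3%, against 39.8% of all genes), 13 with the replicate block, 2 with median centring, 2 with the array SD, 33 with arrayWeights and 0 with the compared groups only. Leaving out 1 array gave 0 to 16, with 16 without replicate 1 of estradiol with astrocytes and 2 without replicate 3 of vehicle with astrocytes. IRF1 changed to 0.70 in this comparison with arrayWeights, from -0.17. The replicate numbers share only a number outside the 2 astrocyte groups, where same-number r ran from -0.493 to 0.720. Member counts here are out of 42 and counts over all genes out of 17958. Over all genes, the 2366 calls under estradiol became 6691 with the block, 542 with quantile normalization and 1974 with median centring. They became 469 with the array SD, 14777 with arrayWeights and 0 with the compared groups only. Without 1 array they were 3 to 9222, the most without replicate 1 of estradiol with astrocytes. They were 1032 without replicate 3 of vehicle with astrocytes. The 10 under vehicle became 2583 with the block, 1166 with the array SD, 12445 with arrayWeights and 1594 with the compared groups only. They became 1004 without replicate 2 of both astrocyte groups, 4 with median centring and 5 with bright genes only. Without 1 array they were 2 to 6107, the most without replicate 2 of estradiol with astrocytes. They were 1122 without replicate 1 of estradiol with astrocytes and 1630 without replicate 1 of vehicle with astrocytes. The 0 calls of the other contrasts became, with arrayWeights, 1197 for estradiol with astrocytes (1 with the array SD), 8 for estradiol alone and 648 for the interaction. Median centring moved the median of all genes from 0.066 to -0.11 under estradiol and from 0.059 to -0.089 under vehicle. The causes were not tested. Precision is limited by the number of arrays.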
